A study of Mus musculus with 6 samples.

Results

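Ribosomal protein genes were followed in cultured Müller glia, which span the mouse retina and support its neurons, by single-cell RNA sequencing. The members are all genes whose symbol is Rpl or Rps followed by a number and at most 1 letter, together with Rplp0, Rplp1, Rplp2 and Rpsa. This rule took 81 of the 27998 genes in the count matrices, 31 of the small ribosomal subunit and 50 of the large one. The rule uses symbols alone. The study asked how lowering let-7 activity and adding miR-25 or miR-124, singly or together, alters gene expression and fate in Müller glia. There were 6 libraries, 1 per treatment: a control that received a control miRNA mimic and a control antagomiR, then let-7 antagomiR (an inhibitor that pairs with let-7), miR-25 mimic alone, the mimic of miR-124 alone, let-7 antagomiR plus miR-25 mimic (the double combination) and all 3 RNAs (the triple combination). Where 6 values are given in library order, they follow this order. All cells came from dissociated mouse retinas grown in serum with N2 supplement and epidermal growth factor, and were transfected using Lipofectamine 3000, at 500 nM of each RNA. The labels used here do not state the strain, the age or the number of the mice. With 1 library per treatment, no treatment difference below has a replicate check, and none was tested.

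Ribosomal proteins are the protein part of the ribosome. The small subunit reads the mRNA and the large subunit joins amino acids, and each protein is present in 1 copy per subunit except for the stalk proteins Rplp1 and Rplp2. Their mRNAs are among the most abundant of a growing cell, are translated together through a pyrimidine tract at their 5′ end, and have been copied many times into the genome as processed pseudogenes. In single-cell data their summed share of UMIs is often reported, since it differs between cell types and growth states.

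Let-7a, of the family that the antagomiR inhibits, and miR-25, which was added as a mimic, are shown first. Their seed (bases 2 to 8, in capitals) is what pairs with target mRNAs. The arm of the miR-25 mimic was not given in the labels and the 3p arm was assumed. The sequences are RefSeq's, on GRCm38.p6, at chr13:48538239-48538260 on the minus strand for let-7a and chr5:138165332-138165353 on the minus strand for miR-25.
mmu-let-7a-5p: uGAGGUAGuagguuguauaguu
mmu-miR-25-3p: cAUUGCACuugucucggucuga
Sites for these seeds were rare in the members. A let-7 site was found in the annotated 3′ UTR of 2 members, Rpsa among them, and a miR-25 site in 2, Rps20 and Rpl15. Among all genes with a 3′ UTR, 8.72% had a let-7 site and 6.36% a miR-25 site. The 3′ UTRs of the 80 members that have one were short, with a median of 166.5 bases against 916 bases over 21307 genes.

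The pyrimidine tract of these mRNAs lies at the start of the gene, so 30-base windows around the annotated start are shown for members that the results turn on, on the transcribed strand, with the pyrimidine motifs CTTTC and CTTCC in capitals, along with the motif CTCTT. They lie at chr4:86857353-86857382 (minus strand) for Rps6, chr11:114668565-114668594 (plus) for Rpl38, chr2:39005117-39005146 (minus) for Rpl35, chr3:90213634-90213663 (minus) for Rps27, chr9:66946071-66946100 (plus) for Rps27l and chrX:74270801-74270830 (plus) for Rpl10, on GRCm38.p6 of RefSeq.
Rps6: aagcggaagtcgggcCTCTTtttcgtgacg
Rpl38: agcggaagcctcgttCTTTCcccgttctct
Rpl35: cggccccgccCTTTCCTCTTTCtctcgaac
Rps27: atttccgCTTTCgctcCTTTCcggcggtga
Rps27l: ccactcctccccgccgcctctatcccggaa
Rpl10: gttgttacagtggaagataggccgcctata
One of these 3 motifs stood on the transcribed strand of the window in 27 of the 60 members found in the promoter table (45.0%), against 15% of 27025 genes. On the other strand of the same windows the share was 10 of 60 (16.7%), against 15.6% of genes. A start at C followed by 4 pyrimidines was annotated for 13 of 60 members (21.7%) and 3.01% of genes. The motif CCGGAA, looked for on either strand of the promoter from 250 bases before to 50 bases after the start, was in 33 of 60 members (55.0%) and 16.7% of genes; CTTCC overlaps its reverse complement. The windows of Rps27l and Rpl10 held none of the 3 pyrimidine motifs, which says only that these letters are absent there. A match is a description of the sequence and not evidence of binding or regulation. All 81 members were found by gene ID in the annotation, on 19 chromosomes with 4 of them on X.

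The matrices held 11804176 to 23124374 UMIs (single RNA molecules counted) per library, and 2721 to 5158 cells per library, 23021 in all, were kept after filtering. Median depth was 3472.5 to 5873.5 UMIs per cell, and the libraries shared 0.331% to 0.850% of the barcodes of the smaller one. The matrix of the double combination was incomplete: 5094879 of 8637523 entries were read, so 3014 of 5141 barcodes were used. Clusters formed without the members were named from marker genes, which gave 11009 Müller-like, 7077 mesenchymal-like, 1548 astrocyte-like, 1431 pericyte-like, 563 microglia-like, 469 neuron-like or progenitor-like and 207 pigment-cell-like cells, with 717 unnamed. In Müller-like cells none of the 25 Müller markers was at 0, and their summed level was 17275 to 28238 CPM (UMI counts scaled to the same total in every library) per library against 3671 to 5688 CPM in mesenchymal-like cells. Müller-like cells fell into clusters led by Lcn2 (4664 cells), Grem1 (3901 cells) and Rlbp1 (2444 cells), and the Rlbp1 cluster lay almost wholly in 2 libraries, with 677 cells labelled miR-124 and 1737 labelled triple against 2 to 16 in each other library. Values on miRNA sites were set beside the labels, with no interval and no test. They are differences in mean log2 ratio over genes other than the members. Linear and quadratic trends with mean level, 3′ UTR length and GC content were removed first. Genes with a let-7 site were higher than genes without one, relative to control, by 0.07 (log2) with let-7 antagomiR and 0.08 in the double combination. The library labelled miR-124, whose label names no let-7 antagomiR, had 0.09, the library labelled triple 0.02 and miR-25 mimic 0.02. A miR-25 site went with values lower by 0.15 with miR-25 mimic and by 0.16 in the double combination, and stood at 0.02 in the library labelled triple. The libraries labelled miR-124 and triple also hold most cells of the Rlbp1 cluster, whose part in these values was not tested. These 2 libraries are called by their labels throughout.

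Ribosomal protein mRNAs made up 15.5%, 13.2%, 12.2%, 13.6%, 13.3% and 12.7% of all UMIs of kept cells, in library order, so that the control stood highest. The make-up of the kept cells differed too: mesenchymal-like cells were 48.1% of them in the control and 21.6% to 35.3% in the other libraries, and Müller-like cells 29.8% and 36.4% to 60.1%; the part of this in the result was not tested. Within Müller-like cells the order was another one: 9.39% in the control (95% Clopper-Pearson interval 9.36 to 9.41, counting error only), 9.31% (9.29 to 9.33) and 9.31% (9.30 to 9.33) with let-7 antagomiR and with miR-25 mimic, 9.16% (9.13 to 9.19) labelled miR-124, 10.4% (10.38 to 10.43) in the double combination and 8.73% (8.71 to 8.75) labelled triple. The double combination was highest and the library labelled triple lowest, and let-7 antagomiR and miR-25 mimic could not be separated within counting error. The spread over cells of 1 library was far wider than these gaps, with quartiles of 7.83% and 10.6% in the control, 8.76% and 11.8% in the double combination and 7.62% and 9.74% labelled triple. The same libraries were at the ends within the Müller-like cluster led by Lcn2, at 10.8% in the double combination and 8.53% labelled triple against 9.25% in the control. In the cluster led by Grem1 they stood at 10.3% and 8.72% against 9.50%. Among Müller-like cells of 3000 to 8000 UMIs the share was 10.4% in the double combination, 8.76% labelled triple and 9.28% to 9.43% in the others. Fewer molecules of the members and more molecules of all other genes cannot be told apart in a share.

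Müller-like cells had a lower share than 5 other classes in each of the 6 libraries. Mesenchymal-like cells carried 19.5%, 19.1%, 18.9%, 17.3%, 19.4% and 18.1% of their UMIs in these genes in library order, each above every Müller-like value. The difference within a library was 9.31 ± 0.702 percentage points (mean ± SD, n = 6 libraries), a ratio of 1.99. The share was higher in mesenchymal-like cells in 6 of 6 libraries (adjusted p = 0.0375, exact sign-flip permutation test, two-sided, Benjamini-Hochberg over 6 classes), where the unadjusted p of 0.03125 is the smallest that 6 libraries allow. Microglia-like cells lay 5.94 ± 0.686 points above Müller-like cells, pigment-cell-like cells 5.16 ± 1.11, astrocyte-like cells 4.21 ± 0.781 and pericyte-like cells 2.33 ± 1.18 points, each higher in 6 of 6 libraries with the same adjusted p of 0.0375 by the exact test. In cells of 3000 to 8000 UMIs, and without the 4% of cells with the highest doublet scores, the mesenchymal-like, astrocyte-like and microglia-like differences kept 6 of 6 libraries, but the adjusted p of the exact permutation test rose to 0.0625 because fewer classes reached the smallest p. The pigment-cell-like difference lost the threshold there too, with an adjusted p of 0.25 by the exact permutation test in the 3 libraries left at 3000 to 8000 UMIs and 0.0625 in the 5 left by the doublet scores. The pericyte-like difference reached down to 0.00384 points in the double combination and lost the threshold under 3 alternatives, with an adjusted p of 0.0625 to 0.075 by the same exact permutation test. Neuron-like and progenitor-like cells lay 1.597 ± 0.777 points above in 5 of 5 libraries, since the control held 5 such cells and was left out; the exact permutation p of 0.0625 is the smallest that 5 libraries allow. These p-values describe 6 libraries that differ in treatment, and whether they came from separate cultures is not stated. Median mitochondrial UMIs per cell moved in the opposite direction for most classes, at 5.90% to 7.48% per library in Müller-like cells. They were 2.68% to 3.61% in mesenchymal-like, 2.80% to 3.50% in astrocyte-like and 4.94% to 7.65% in neuron-like cells. Their part in the result was not tested. With mitochondrial UMIs left out of the total, the mesenchymal-like difference was 9.26 points. The pericyte-like one was then 2.09 points and higher in 5 of 6 libraries.

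**Figure D1:**
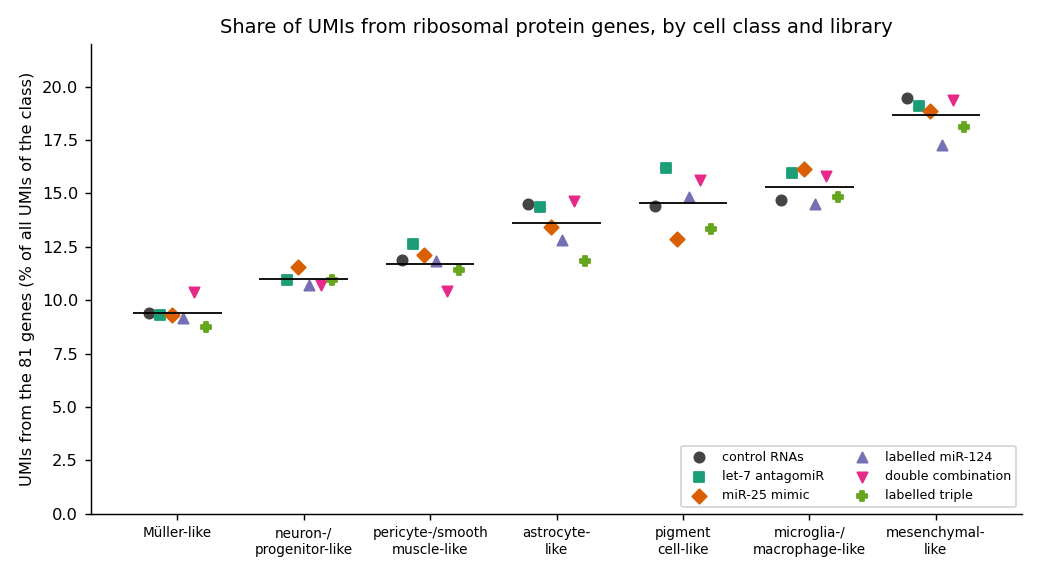
Share of UMIs from ribosomal protein genes (vertical axis, percent) in each cell class (horizontal axis), with 1 point per library and a black line at the mean over libraries. Müller-like cells have the lowest mean (9.38%) and mesenchymal-like cells the highest (18.7%), and the points of those classes do not overlap.

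Both subunits made up the share in nearly constant proportion. Small-subunit genes took 4.27%, 4.22%, 4.27%, 4.23%, 4.77% and 3.92% of Müller-like UMIs in library order. Large-subunit genes took 5.12%, 5.09%, 5.04%, 4.93%, 5.64% and 4.81%. The double combination was highest and the library labelled triple lowest for both. The ratio of large to small subunit was 1.17 to 1.23 in Müller-like and 1.12 to 1.17 in mesenchymal-like cells.

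Single members were then read as CPM of the counts that Müller-like cells of a library sum to, with totals of 3660171 to 12042225 UMIs. A gene was measured when it reached 20 CPM in at least 1 library. Of the 81 members 76 were measured, 30 of 31 small-subunit and 46 of 50 large-subunit genes, which is 1.07% of the 7101 genes measured in these cells. UMIs here tag molecules at the 3′ end and are not scaled by length, so levels of different genes are compared per molecule counted. The members' median was 1206 CPM, and 47 exceeded 1000 CPM. The highest means over the 6 libraries were those of Rpl13a (3299 ± 276 CPM, SD), Rps27a (3174 ± 286), which is made as a fusion with ubiquitin, Rps14 (2999 ± 232), Rps19 (2937 ± 357), the gene most often mutated in Diamond-Blackfan anaemia, and Rpl19 (2770 ± 441). These 5 lie within each other's spread over libraries or close to it. The lowest measured were Rps27 (37.2 ± 7.84 CPM), Rpl6l (40.6 ± 17.0), Rpl10 (40.8 ± 16.03), Rpl23a (48.5 ± 14.6) and Rpl9 (92.3 ± 17.2). A ribosome holds 1 copy of each of these proteins, so a low count for a core member such as Rpl10 or Rpl23a is set beside its near copies elsewhere in the genome further on.

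The other 5 members stayed under the minimum. Rps12 had 41, 75, 68, 38, 54 and 17 UMIs in Müller-like cells in library order, and Rpl27 had 31, 56, 55, 16, 46 and 37. The tissue-restricted paralogs were near 0: Rpl10l, a testis form of Rpl10, had 1 to 7 UMIs per library, Rpl3l, a striated-muscle form of Rpl3, 0 to 2, and Rpl39l, a germ-cell form of Rpl39, 0 to 4. Rpl39l was present in mesenchymal-like cells of the same libraries, at 19.6, 13.1, 18.7, 11.8, 15 and 21.9 CPM.

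The members varied little between libraries: the median coefficient of variation over the 6 libraries was 10.1%. Rps25, known for its part in initiation at internal entry sites, had 1179, 1202, 1140, 1174, 1137 and 1108 CPM, a coefficient of 2.97%, the lowest. Rps15a (3.19%), Rpl23 (3.27%) and Rpl17 (3.44%) followed. At the other end stood Rpl6l (41.9%), Rpl10 (39.2%), Rps2 (35.8%), Rpl23a (30.01%) and Rpl35 (21.4%). After subtracting the members' median in each library, the double combination was the highest library for 27 of 76 members and the lowest for 29, and the library labelled triple the highest for 27 and the lowest for 17. The control was highest for 8 and lowest for 21, the library labelled miR-124 for 8 and 4, miR-25 mimic for 4 and 3 and let-7 antagomiR for 2 and 2. Most extremes thus fell in the double combination and the library labelled triple. The same counts over all genes are not given here.

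**Figure D2:**
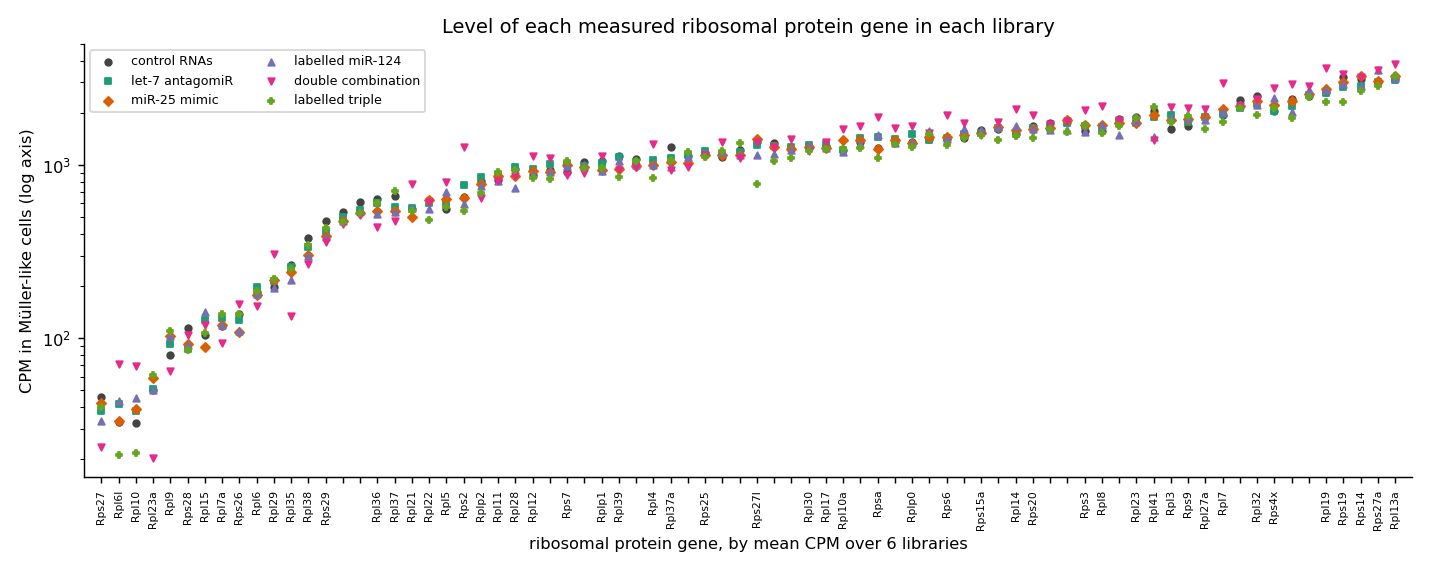
Level of the 76 measured ribosomal protein genes in Müller-like cells (CPM, log axis) in each of the 6 libraries, 1 point per gene and library, with members described in the text labelled. Most members lie within a narrow band near the median of 1206 CPM, and a tail of low members reaches down to Rps27 at a mean of 37.2 CPM.

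Between Müller-like and mesenchymal-like cells the members stood lower together in the Müller-like ones. The log2 ratio of CPM + 5 was taken in each library and averaged over the 6. Of 77 members measured in either class, all 77 were lower in Müller-like cells in 6 of 6 libraries, 76 of them by a log2 ratio of at least 0.32 in size and 0 higher by that ratio, where 27.3% of 7790 genes were lower and 33.6% higher. The members' median was −0.96 against 0.04 over all genes, of which 47.2% were negative. Small-subunit genes had a median of −1.01 and large-subunit genes of −0.95. These numbers restate the share by gene, so no separate test was made. The same 77 values had a median of −1.07 when CPM were taken over genes that are neither members nor mitochondrial, against −0.05 for all genes.

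The size of the class difference varied by member with an SD of 0.28 (log2). Rps19 had 3204, 2813, 3018, 2930, 3338 and 2319 CPM in Müller-like cells and 9133, 8389, 8218, 7914, 8699 and 7176 CPM in mesenchymal-like cells, a log2 ratio of −1.49 ± 0.09 (SD, n = 6 libraries). Rpl13a (−1.41 ± 0.10) and Rpl27a (−1.36 ± 0.10) were also among the lowest. Rpl39l stood lowest (−2.05 ± 0.28), but it was measured through mesenchymal-like cells alone, so it had to differ, and with 0 to 4 UMIs in Müller-like cells its ratio depends on the added 5 CPM. Rpl41, the shortest ribosomal protein, was least different, with 2045, 1900, 1953, 1443, 1395 and 2160 CPM in Müller-like and 2375, 2244, 1965, 1684, 1536 and 2664 CPM in mesenchymal-like cells, a ratio of −0.19 ± 0.10. Rpl15 (−0.38 ± 0.22), Rpl30 (−0.44 ± 0.08) and Rpl7 (−0.47 ± 0.13) also stood near the upper end. The distance between Rps19 and Rpl41 was larger than the spread of either over libraries. Of the fixed members, Rpl3, which forms part of the peptidyl transferase centre, was at −0.47, Rpsa, also known as a laminin receptor precursor, at −0.85, and the stalk base Rplp0 at −1.14 with the stalk proteins Rplp1 and Rplp2 both at −0.76. Rps6, the substrate of S6 kinase, was at −1.06, Rpl5 at −0.99 and Rpl11 at −0.72; these last bind Mdm2 when free of the ribosome. Rps27l, a paralog of Rps27 and a p53 target, was at −1.11 ± 0.27, Rps27 at −0.93, the X-linked Rps4x at −0.98, Rpl22 at −1.03, Rpl38 at −0.74 and Rps25 at −0.65. Rps19, Rpl13a and Rpl27a all lie on chromosome 7; the 14 members on it had a median of −1.09 against −0.95 for the other 63, a split chosen after the values were seen, while other genes had 0.01 on chromosome 7 and 0.05 elsewhere.

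**Figure D3:**
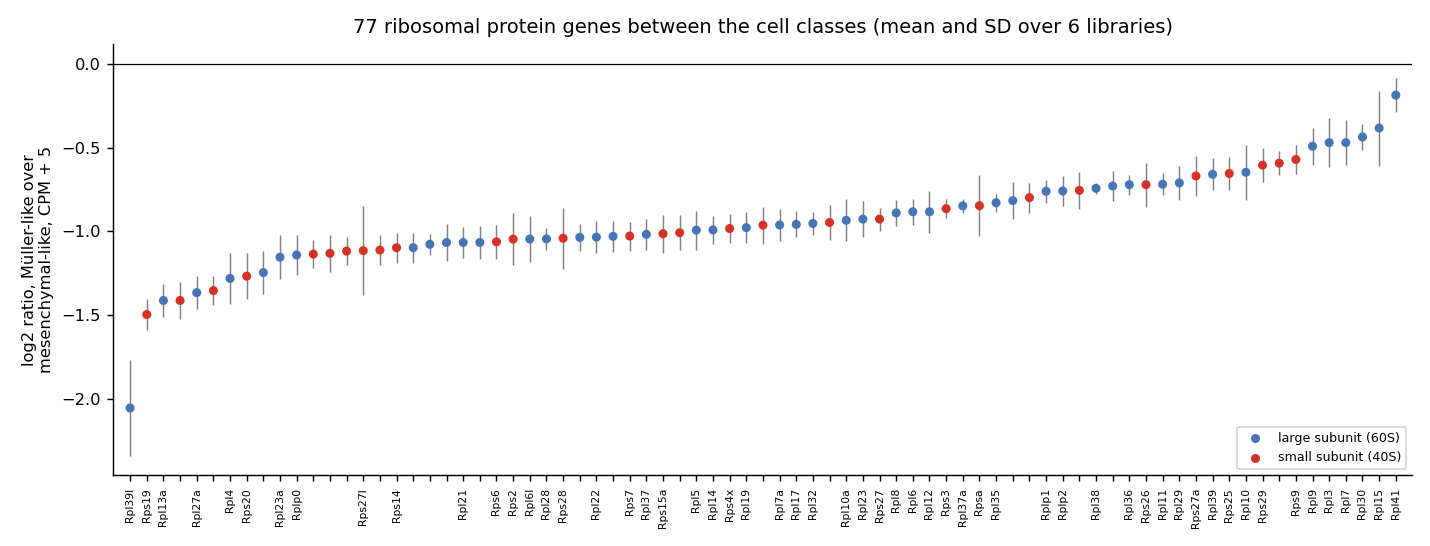
Log2 ratio of CPM + 5 of Müller-like over mesenchymal-like cells for 77 ribosomal protein genes, ordered by the mean over 6 libraries (points) with the SD (bars), with members described in the text labelled. Every mean lies below 0, from −2.05 for Rpl39l to −0.19 for Rpl41.

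Among Müller-like cells the members were set against the control gene by gene, as log2 ratios of CPM + 5, with a member counted as higher or lower past a log2 ratio of 0.32 in size. With let-7 antagomiR 0 members were higher and 1 lower, where 5.75% and 6.03% of the 7101 genes measured were. With miR-25 mimic 1 was higher and 2 lower, where 6.94% and 5.70% were. Labelled miR-124, 4 were higher and 5 lower, against 20.4% and 16.5% of all genes. The double combination had 19 of 76 members higher and 9 lower, against 14.2% and 17.4%, and the library labelled triple 1 higher and 10 lower, against 24.6% and 17.2%. In mesenchymal-like cells the balance in the double combination was the other way, with 8 of the same 76 members higher and 18 lower (median −0.08), where 8.67% and 12% of the 6435 genes measured there were. Labelled triple, mesenchymal-like cells had 2 higher and 5 lower, against 11.8% and 8.42%. In Müller-like cells the members' medians were 0.01, −0.01, −0.03, 0.07 and −0.09 in that order, where those of all genes were 0.01, 0.03, 0.05, −0.02 and 0.05. The first of the members' medians changed sign, to −0.0046, with median-of-ratios scaling. Only in the double combination was the SD over members (0.40) larger than that over all genes (0.36). In the other 4 it was 0.13, 0.14, 0.20 and 0.20 against 0.22, 0.23, 0.45 and 0.54. No scaling tried shifted the median of all genes by over 0.1. These contrasts share the control library, and all rest on 1 library per side.

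**Figure D4:**
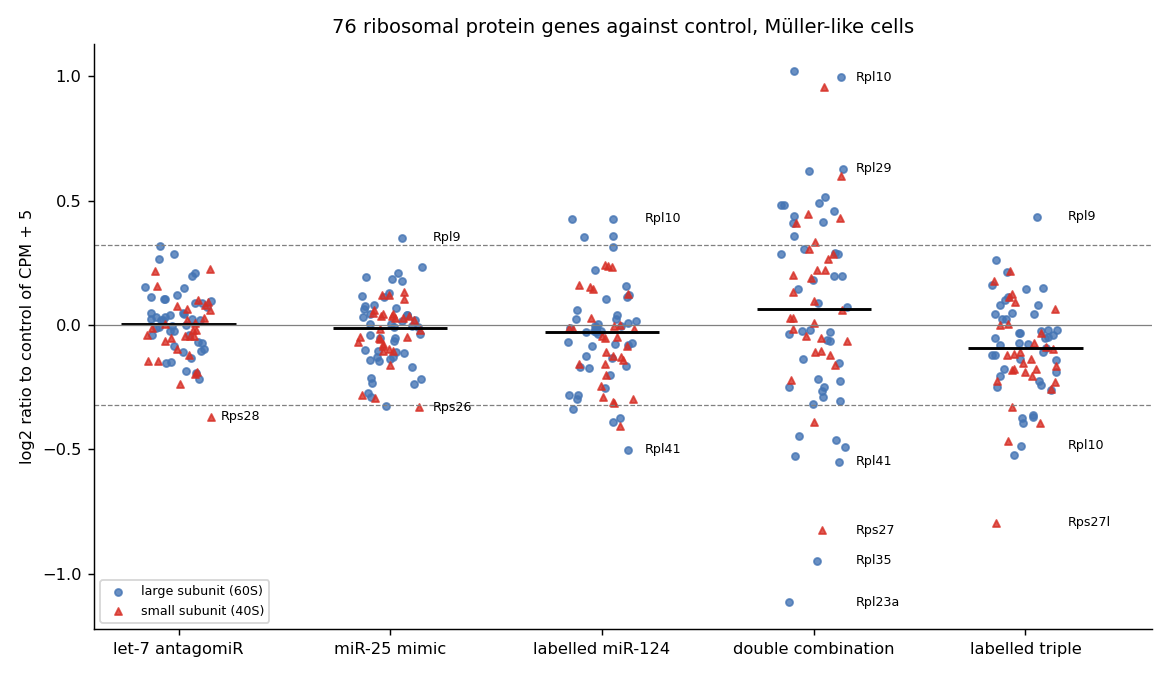
Log2 ratio to control (vertical axis, CPM + 5) of the 76 measured ribosomal protein genes in Müller-like cells of the 5 treated libraries; circles are large-subunit and triangles small-subunit genes, black lines the medians and dashed lines the log2 ratio of 0.32 used for counting. The double combination spreads most, from −1.11 for Rpl23a to 1.02 for Rpl6l, about a median of 0.07.

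In the double combination members stood on both sides of the control. Rps2, a small-subunit protein at the mRNA entry, had 651, 763, 642, 598, 1268 and 545 CPM in library order. Only the double combination exceeded 1000 CPM, and its log2 ratio to control was 0.96 (95% interval of the count ratio 0.90 to 1.02, counting error only; 0.72 in mesenchymal-like cells). Rpl10, a large-subunit protein that joins late in assembly, had 32.3, 38.0, 38.8, 45.1, 69.3 and 21.6 CPM in library order, a log2 ratio of 1.0 (0.84 to 1.37; 0.55 in mesenchymal-like cells). Rpl6l, annotated as a processed pseudogene of Rpl6, had 32.6, 41.9, 33.5, 43.2, 71.4 and 21.2 CPM, a ratio of 1.02 (0.87 to 1.39; 0.65). For these 3 the double combination was the highest of the 6 libraries and the library labelled triple the lowest.

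The next highest in the double combination were better counted. Rpl7 had 1933, 1966, 2097, 2017, 2969 and 1779 CPM in library order, a log2 ratio of double combination to control of 0.62 (0.58 to 0.65). Rpsa had 1255, 1461, 1239, 1485, 1902 and 1099 CPM, a ratio of 0.60 (0.56 to 0.64), and Rpl29 197, 215, 216, 196, 308 and 219 CPM, a ratio of 0.63 (0.53 to 0.75). Their ratios in mesenchymal-like cells of the same libraries were 0.39, 0.49 and 0.43. Rpl5 (0.51 in Müller-like and 0.25 in mesenchymal-like cells), Rps6 (0.45 and 0.27), Rpl3 (0.44 and 0.12) and Rps4x (0.43 and 0.32) were also past 0.32 in Müller-like cells. The remaining 9 of the 19 were Rpl12, Rpl21, Rps9, Rps3, Rpl4, Rpl14, Rpl19, Rpl8 and Rpl10a, and Rpl10a was at −0.03 when all kept cells were summed.

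The members lower in the double combination were fewer than those higher in Müller-like cells, but not in mesenchymal-like cells, as the counts above show. Rpl23a, at the exit of the nascent-peptide tunnel, had 50.1, 50.8, 58.7, 49.998, 20.5 and 61.2 CPM, so that the double combination lay under every other library, with a log2 ratio to control of −1.11 (−1.62 to −0.97; −1.29 in mesenchymal-like cells). Rpl35, also at the tunnel exit, had 264, 259, 241, 216, 134 and 250 CPM, a ratio of −0.95 (−1.10 to −0.85; −0.93). Rps27 had 45.7, 38.0, 42.2, 33.3, 23.6 and 40.3 CPM, a ratio of −0.83 (−1.27 to −0.64; −0.86). Rpl35 and Rps27 carry pyrimidine motifs in the start windows shown above. In all 3 the double combination was lowest of the 6 and mesenchymal-like cells gave values close to those of Müller-like cells. Rpl41, whose CPM are given above, was at −0.55 (−0.59 to −0.51; −0.63), and Rpl36 had 636, 607, 541, 523, 440 and 601 CPM, a ratio of −0.53 (−0.61 in mesenchymal-like cells). Rpl38, needed for the translation of Hox mRNAs, had 381, 334, 303, 300, 269 and 346 CPM, a ratio of −0.49 (−0.42). Rpl37a, Rpl37 and Rps29 made up the rest of the 9.

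These ratios were also read inside the Müller-like clusters that both libraries share. In the clusters led by Lcn2 and by Grem1 the double combination stood at 0.97 and 0.90 for Rps2, 0.80 and 1.16 for Rpl10, −0.71 and −1.36 for Rpl23a, −0.81 and −1.02 for Rpl35 and −0.60 and −0.93 for Rps27. Each kept its side of the control in both. Markers of pericytes moved with the double combination too: the list of 10 genes summed to 4219, 4704, 3578, 2017, 6109 and 1173 CPM in Müller-like cells in library order, with 0 to 2 of its genes at 0. The 25 Müller markers summed to 20647, 20920, 21688, 26045, 17275 and 28238 CPM, lowest in the double combination and highest labelled triple. The part of these lists in the members' values was not tested, nor was that of the unread part of the matrix. The stalk members did not move together: Rplp0 had 1353, 1504, 1346, 1340, 1672 and 1268 CPM (0.30), Rplp1 1055, 1025, 938, 919, 1121 and 958 CPM (0.09) and Rplp2 805, 856, 776, 762, 645 and 688 CPM (−0.32). Rplp2 alone of these 3 was below the control, and at −0.53 in mesenchymal-like cells. Rpl11 was at −0.03, at 820, 881, 859, 804, 804 and 916 CPM.

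Members with a longer annotated transcript tended to stand higher in the double combination. Transcript length was taken from 1 annotated transcript per gene (GENCODE vM21), the lowest-numbered one, for 75 measured members. The median was 775 bases (345 to 3706), where that of 6927 other genes was 2895. This transcript need not be the main mRNA. Rpl22 was taken at 474 bases and Rpl9 at 738, while their longest annotated 3′ UTRs have 1647 and 1955 bases. The length groups and rho below carry that limit. The 24 members under 600 bases had a median log2 ratio of −0.09 to the control, the 23 of 600 to 900 bases 0.20 and the 28 of 900 bases or more 0.24. The last group still ran from −0.95 for Rpl35 to 0.96 for Rps2. In mesenchymal-like cells the medians were −0.28, 0.10 and 0.015. Spearman's rho over the 75 members was 0.49 in Müller-like and 0.48 in mesenchymal-like cells. Other genes also rose from under 600 bases to 600 to 900 bases, then fell at 900 bases or more. Their medians were −0.25, 0.19 and −0.03 over 112, 348 and 6467 genes. Their rho of −0.35 covers mostly transcripts of 900 bases or more, a range unlike that of the members. Against the same control, rho over the members was 0.50 for let-7 antagomiR, 0.30 for the miR-25 mimic, 0.39 labelled miR-124 and 0.18 labelled triple. These points share their libraries, so rho is a description of 1 pair of libraries each time.

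**Figure D5:**
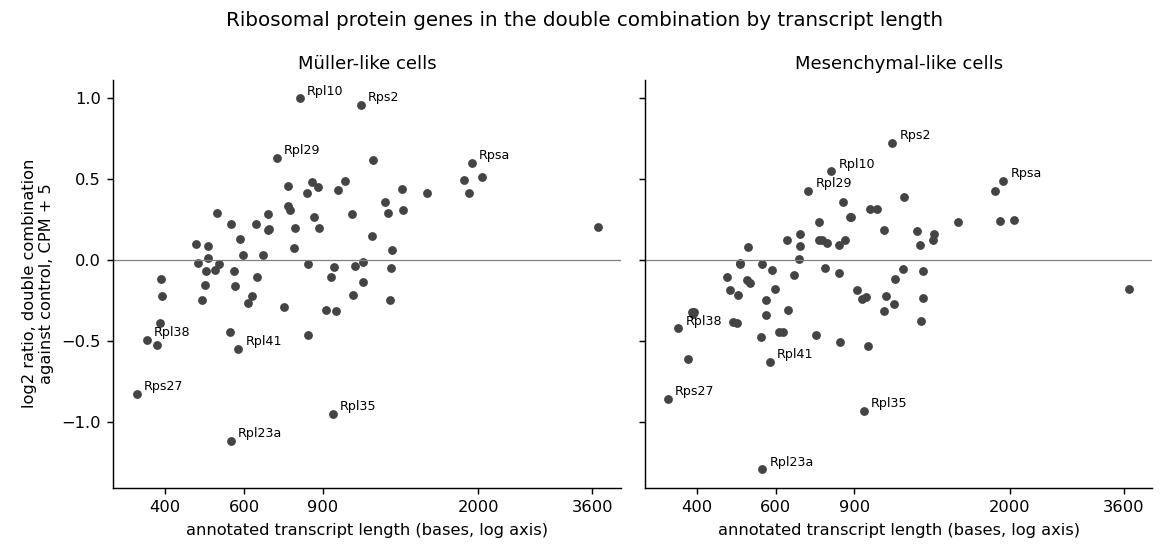
Log2 ratio of the double combination to control (vertical axis, CPM + 5) against annotated transcript length (bases, log axis) for 75 ribosomal protein genes in Müller-like (left) and mesenchymal-like cells (right). Short members lie lower, with a median of −0.09 under 600 bases and 0.24 at 900 bases or more in Müller-like cells.

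Ribosomal protein genes have many near-identical copies, and counts can be lost or shared there. The last 300 bases of 1 annotated transcript per member, the lowest-numbered one, were compared with all annotated transcripts. A copy was counted at 97% identity over 100 bases. Rps2 had 33 such copies, Rpl7a 28, Rpl29 21, Rpl17 18, Rpl23a 13, Rpl15 11 and Rpl10 9, while Rpl35 had 3 and Rps27 2. Of the 80 members compared 29 had 0 copies by this count and 23 had 5 or more. The transcript searched need not be the main mRNA, so a count of 0 does not mean that copies are absent. Rpl13a was counted at 0, though a row named Rpl13a-ps1 is among the pseudogenes below. Counts of members with copies, Rps2, Rpl10, Rpl23a and Rpl29 among them, are therefore uncertain, as is the pseudogene Rpl6l. In the double combination the median distance from the members' median was 0.23 for 26 measured members with 0 counted copies. It was 0.29 for 28 with 1 to 4 and 0.20 for 21 with 5 or more. The largest distances were 0.53, 1.01 and 1.18. The widest values were those of members with counted copies, though the medians did not order the groups.

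Few members stood out with the single RNAs. With let-7 antagomiR only Rps28 passed 0.32 in size: it had 114, 87.0, 92.0, 91.0, 104 and 85.5 CPM in library order. Its log2 ratio was −0.37 (−0.54 to −0.24; −0.36 in mesenchymal-like cells), and the control was the highest library. Rpl6l (0.32) and Rpl15 (0.29) were the highest members and were not counted. With miR-25 mimic Rpl9 was higher, with 80.0, 92.5, 103, 104, 64.5 and 110 CPM, a ratio of 0.35 (0.21 to 0.53; 0.25 in mesenchymal-like cells). Rps26 had 139, 127, 109, 110, 159 and 139 CPM, a ratio of −0.33 (−0.26), and Rpl38 was at −0.32 (−0.27). The members with a miR-25 site, Rpl15 and Rps20, were at −0.22 and −0.05 with the mimic. Rpsa, which has a let-7 site, had 1461 CPM with let-7 antagomiR against 1255 in the control.

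In the library labelled miR-124 the 5 lower members were 4 of the large subunit and Rps27. Rpl41 was at −0.50 in Müller-like and −0.50 in mesenchymal-like cells, Rps27 at −0.40 and −0.39, and Rpl28 at −0.37 and −0.43. Rpl37a, with 1278, 1098, 1045, 974, 936 and 1065 CPM, was at −0.39 and −0.35. Rpl38 completed the 5. Of the 4 higher members, Rpl10 was at 0.43 (0.31 in mesenchymal-like cells), Rpl15, with 104, 128, 88.4, 141, 120 and 108 CPM, at 0.43 (0.04), Rpl6l at 0.36 and Rpl9 at 0.35 (0.02). The higher members are among the weakly counted ones in all 6 libraries, at or under 141 CPM.

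In the library labelled triple 10 of 76 members were counted as lower, a smaller share than the 17.2% of all genes. Rps27l, whose start window held none of the motifs, had 1350, 1302, 1409, 1137, 1359 and 776 CPM, so that this library stood alone below 1000 CPM, with a log2 ratio to control of −0.79 (−0.85 to −0.75). In mesenchymal-like cells Rps27l had 2686, 2689, 2496, 2890, 2641 and 2251 CPM, a ratio of −0.25. Within the Müller-like clusters led by Lcn2 and Grem1 the ratio was −0.30 and −0.37, and inside the Rlbp1 cluster, of which the control has 7 cells, the library labelled triple stood at −0.58 relative to the one labelled miR-124. Its size thus differs more than 1.5 times between the class as a whole and its shared clusters. At the coarser clustering, which left the Rlbp1-led cluster unnamed and outside the Müller-like cells, the ratio was −0.38. Marker lists of other cell types also moved in Müller-like cells, from the control to this library: 9 retinal astrocyte genes summed to 319 and 1488 CPM (222 to 803 in the other libraries), 10 neurogenic progenitor genes to 100.4 and 422, 6 endothelial genes to 438 and 1049 and 10 pericyte genes to 4219 and 1173. Of these 3, 3, 3 and 2 genes were at 0 in the control and 1, 1, 3 and 0 in this library. The library labelled miR-124 lay on the same side of the control, at 803, 342, 797 and 2017 CPM for these lists. From the control to the library labelled triple, the neuron list went from 931 to 508 CPM and the fibroblast or mesenchymal list from 133 to 266 CPM. The Müller list went from 20647 to 28238 CPM. The part of these lists in the result was not tested. Rps19 was at −0.47 (−0.50 to −0.44; −0.35 in mesenchymal-like cells), and at −0.44 and −0.49 in the Lcn2 and Grem1 clusters. Rpl6l (−0.52; −0.92 to −0.32) and Rpl10 (−0.49; −0.88 to −0.28) were also lower, at −0.55 and −0.63 in mesenchymal-like cells. Rpl22, which had 624, 608, 631, 557, 615 and 481 CPM, and Rpl39, at 1122, 1112, 952, 1061, 933 and 854 CPM, were lowest in this library too. Rpl32 and Rps28 were also among the 10. Rpl9 was the only member counted as higher, at 0.43 (0.29 to 0.62; 0.32 in mesenchymal-like cells), followed by Rpl23a (0.26), Rps7 (0.22) and Rpl7a (0.21).

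Set against the double combination, the library labelled triple had 9 members higher and 27 lower in Müller-like cells, where 32.5% and 24.7% of all genes were. The members' median was −0.22 with an SD of 0.48, against 0.07 and 0.71 over all genes. Rpl6l (−1.55; −1.19 in mesenchymal-like cells), Rpl10 (−1.48; −1.17) and Rps2 (−1.21; −0.74) were lowest, and Rps27l was at −0.80 against −0.23. Rpl23a (1.38; 1.72), Rpl35 (0.87; 0.93), Rpl9 (0.72; 0.79) and Rps27 (0.66; 0.53) were higher. Rps27 was not higher throughout, at −0.12 within the Lcn2 cluster and at −0.039 without the largest Müller-like cluster. Rpl6l, Rpl10, Rps2, Rpl23a, Rpl35 and Rps27 also stood far from control in the double combination, a library that both comparisons share. Rpl9 and Rps27l were not counted there. They were the highest and the lowest member labelled triple against control, where Rpl6l and Rpl10 were lower too. In mesenchymal-like cells the same comparison had 11 members higher and 11 lower, with a median of −0.08, where 15.4% and 7.97% of all genes were.

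Other genes of the translation machinery were counted from lists, in Müller-like cells unless stated. The shares of all genes given above are the background to these counts, for the double combination 14.2% higher and 17.4% lower, and labelled triple 24.6% and 17.2%. For Müller-like against mesenchymal-like cells they are 33.6% higher and 27.3% lower. In the double combination 12 of 32 translation factors, which load and move the ribosome, were higher and 1 lower (median 0.19), but 1 was higher and 2 lower in mesenchymal-like cells (median 0.05). Labelled triple, 2 were higher and 5 lower (median −0.13). Eef1b2 was at 0.61 and Eef1a1 at 0.53 in the double combination, both elongation factors, and Eif3c at −0.36. Eif4ebp1, which restrains cap-dependent initiation, was at −1.05 in the library labelled triple. Between classes 20 of the 32 were lower in Müller-like than in mesenchymal-like cells and 2 higher (median −0.53). Ribosomal proteins outside the name rule, 6 measured of 8, had 3 higher and 0 lower in the double combination (median 0.22). In its mesenchymal-like cells 0 were higher and 1 lower (median −0.008). Labelled triple, 0 were higher and 3 lower. Of 70 measured mitochondrial ribosomal proteins, 18 were higher and 2 lower in the double combination (median 0.21) and 1 higher and 6 lower labelled triple (median −0.06). Mesenchymal-like cells of the double combination had 4 higher and 4 lower (median 0.09). Between classes 29 were lower and 4 higher in Müller-like than in mesenchymal-like cells. Other mRNAs with a pyrimidine tract and hosts of snoRNAs, 13 measured, had 7 higher and 1 lower in the double combination (median 0.40) and 3 and 0 in its mesenchymal-like cells (median 0.17). In Müller-like cells Tpt1 went from 4298 CPM in the control to 7367 CPM there. Ribosome biogenesis genes, 23 measured of 35, had 6 higher and 1 lower in the double combination (median 0.08), with Polr1d at 0.59 and Fbl at 0.55 and Tcof1 at −0.65. Mesenchymal-like cells had 0 higher and 4 lower (median −0.08), and Müller-like cells labelled triple 1 higher and 5 lower (median −0.14).

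Lists upstream of the ribosome stood as follows, again in Müller-like cells unless stated. Of all genes, 24.6% were higher and 17.2% lower labelled triple, 20.4% and 16.5% labelled miR-124, and 14.2% and 17.4% in the double combination. Growth control genes, 16 measured of 19, had 8 higher and 1 lower in the library labelled triple (median 0.32) and 3 higher and 1 lower in its mesenchymal-like cells (median 0.08). Deptor, an inhibitor of mTOR, had 2.37 CPM in the control and 33.5 CPM there, and Rheb, an activator of mTOR, was at −0.45. In the double combination 2 were higher and 1 lower. Of 14 measured p53 targets, 11 were lower and 0 higher labelled triple (median −0.83), 10 lower labelled miR-124 (median −0.46) and 6 higher in the double combination (median 0.24). In mesenchymal-like cells the same medians were −0.08, 0.04 and 0.20. Cdkn1a, a cell-cycle inhibitor, had 907, 1030, 876, 553, 1292 and 436 CPM in Müller-like cells in library order, and Mdm2, the ligase of p53, 180, 176, 179, 123, 289 and 98.1 CPM. Both were lowest where Rps27l was lowest, labelled triple. Rps27l was itself at −0.25 labelled miR-124, where Cdkn1a and Mdm2 were also below the control. Of 7 measured integrated stress genes 1 was higher and 1 lower labelled triple, as for the double combination.

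Annotated pseudogenes of the members gave a further reading. Of 16 rows named for a pseudogene of a member 10 were measured. In the library labelled triple all 10 were lower, with a median of −1.16 (−1.53 to −0.40), and all 10 were lower in mesenchymal-like cells too (median −1.0). In the double combination 6 were higher and 1 lower (median 0.39). Rpl10-ps3 had 78.7, 94.8, 91.7, 106, 152 and 26.2 CPM in library order, Rpl9-ps6 55.6, 71.9, 57.6, 78.4, 97 and 20.5, and Rpl13a-ps1 39.0, 48.4, 44.8, 53.5, 61 and 12.6. The 3 share their order at the ends with Rpl10 and Rpl6l, highest in the double combination and lowest in the library labelled triple. Rpl9 itself ran the other way from Rpl9-ps6, highest labelled triple and lowest in the double combination. Of the 10 rows, Rpl36-ps3 stood lowest in the double combination (−0.57) and was the least lowered labelled triple. How reads were divided between genes and copies was not tested, and values of members with copies carry that limit.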

How the data were processed

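The labels' protocols name the 10x Genomics V2 kit. What the authors deposited are raw UMI counts, 1 matrix per library. The submitters' processing notes list Cell Ranger 2, Seurat 2 and mm10. The authors' cell filters were not given in the sources used here. For the double combination the matrix was cut short, and 5094879 of 8637523 entries were read. Columns outside the 6 samples numbered 0.

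A barcode was kept from 500 genes upward and up to 10% mitochondrial UMIs (scanpy 1.11.5), and Scrublet calls were removed. Scrublet marked 2.17% of cells with let-7 antagomiR, 3.06% labelled miR-124 and 1.38% in the double combination. It marked 0.111% in the control, 0.193% with miR-25 mimic and 0.147% labelled triple, too few for it to have worked in these, and removal of the 4% with the highest scores was therefore tried. Cells were clustered without the members (2000 variable genes, 30 components, 15 neighbours, Leiden resolution 0.6). A cluster was named "-like" from at least 3 markers 2-fold over the median cluster and left unnamed where another list reached 0.7 of the best share, unless the top 10 genes held markers of 1 list only; this naming rule was set after the clusters were seen. Counts were summed per library and class and scaled to CPM (numpy 2.4.6). Genes with 20 CPM in at least 1 of the 6 libraries entered every contrast as log2 ratios of CPM + 5, with no test of treatments. Intervals are exact at 95% (scipy 1.17.1) and cover counting error only. Classes were compared over libraries by an exact sign-flip permutation test. Near copies were found with BLAST 2.17.0. On simulated data 200 of 200 genes changed 2-fold were called among 7101.

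Named genes are 17 members fixed whatever their values and those with an added l, the 5 highest and 5 lowest by level, the 4 highest and 4 lowest per contrast and 2 per end of each other list. Others that are named were chosen after their values were seen. The members and lists were chosen with earlier results of these data known. The mature miR-124 sequence was not used here. Some of the genes named by this rule are not reported here. Alternatives changed the scaling, pseudocount, filters, clustering, depth and cell class.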

Additional observations from a re-analysis of the deposited data

How the results depend on the processing

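Libraries are in the order of the report. No paired analysis was possible because each treatment has 1 library and the labels give no replicate numbers. The share of members in all kept cells was 15.2%, 13%, 12.1%, 13.3%, 13% and 12.6% over every barcode, 17.4%, 16%, 14.2%, 15.4%, 15.7% and 14.7% with at most 5% mitochondrial UMIs, 16.2%, 13.9%, 12.8%, 14.2%, 14.1% and 13.3% of non-mitochondrial UMIs, 15.1%, 12.7%, 12.1%, 14.1%, 13.1% and 11.8% in cells of 3000 to 8000 UMIs, and 15%, 11.2%, 10.5%, 12.1%, 12.1% and 9.94% as a median over cells. With at least 1000 genes the first 4 were 15.5%, 13.2%, 12.2% and 13.7%. Without the 4% highest doublet scores it was 13.3% for let-7 antagomiR, 12.1% for the miR-25 mimic and 12.6% labelled triple. In Müller-like cells it was 10.1%, 9.97%, 9.90%, 9.87%, 11.1% and 9.32% of non-mitochondrial UMIs. Cells of 3000 to 8000 UMIs gave 9.43%, 9.35%, 9.28% and 9.41% in the first 4 and 8.76% labelled triple. At resolution 0.3 it was 9.29%, 9.27% and 8.61% with let-7 antagomiR, miR-25 mimic and labelled triple. That resolution left the Rlbp1-led cluster unnamed, so 515 cells labelled triple were Müller-like there, against 2293 in the main clustering. At resolution 1.0 the share was 9.26%, 9.24% and 8.69% in the same order, with 10.4% in the double combination. The double combination was also at 10.4% without the 4% highest doublet scores. The double combination stayed highest in Müller-like cells and the library labelled triple lowest under each of these.

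Class differences lost the threshold as follows, all by the exact permutation test with adjusted p. With non-mitochondrial UMIs the pericyte-like one was 2.09 points (0.0625). In cells of 3000 to 8000 UMIs they were 9.08 mesenchymal-like, 4.09 astrocyte-like and 6.26 microglia-like (each 0.0625), 2.08 pericyte-like (0.075) and 4.70 pigment-cell-like in 3 libraries (0.25). Without the 4% highest doublet scores they were 9.33, 4.18, 5.91, 2.13 and 4.87 (each 0.0625). Mesenchymal-like, astrocyte-like and microglia-like cells stayed higher in 6 of 6 libraries there with an unadjusted exact permutation p of 0.03125; the adjustment moved because pericyte-like cells were higher in 5 of 6 and fewer libraries held 20 pigment-cell-like cells. At resolution 0.3 no neuron-like difference could be computed.

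Members past the log2 ratio of 0.32 were most changed by summing all kept cells: 14 for let-7 antagomiR, 42 for the miR-25 mimic, 17 labelled miR-124 and 26 labelled triple, with medians of −0.20, −0.35, −0.21 and −0.27 and of −0.29 in the double combination and −0.071 for triple against double, where the cell classes also differ in share. The medians of all genes in these sums were 0.01 to 0.05, and their shares past the ratio are not given here. Otherwise let-7 antagomiR had 2 with a pseudocount of 1, without the largest cluster, in mesenchymal-like cells and at 3000 to 8000 UMIs, miR-25 mimic 5 without the largest cluster, and the library labelled miR-124 14 with median-of-ratios scaling and 16 in mesenchymal-like cells. Mesenchymal-like cells gave 7 labelled triple and 23 for triple against double. Medians moved to −0.15 labelled triple and −0.30 for triple against double with median-of-ratios scaling, and for the latter to −0.25 with CPM over other genes and −0.29 without the largest cluster. Without that cluster the miR-25 median was −0.057. Mesenchymal-like cells had −0.070 for the miR-25 mimic, −0.18 labelled miR-124, −0.080 for the double combination and −0.078 for triple against double. Within the clusters led by Lcn2 and Grem1, chosen after seeing the data, the medians were 0.022 and −0.055 with miR-25 mimic, 0.13 and 0.0067 in the double combination and −0.29 and −0.19 for triple against double. Of named members, Rpl10a in the double combination reversed to −0.031 over all kept cells, and Rps27, triple against double, to −0.039 without the largest Müller-like cluster. The cause was not tested. For the remaining values, single members with further medians and counts, the alternatives gave 3935 close to the main one and 1010 that moved. Depth limits Rps27, Rpl10, Rpl6l and Rpl23a most, at under 75 CPM.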
